A study of Homo sapiens with 23 samples.

Results

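Acetylation of histone H3 at lysine 18 (H3K18ac) and of histone H4 at lysine 12 (H4K12ac) was compared in untreated cultures of SW480, a colon cancer cell line of human origin. The comparison takes the peak lists of every untreated library of both marks, which are 4 of the 23 samples of the series, 2 replicates of H3K18ac and 2 of H4K12ac. The series mapped acetyl, propionyl and butyryl marks at these lysines by chromatin immunoprecipitation followed by sequencing (ChIP-seq), in which an antibody pulls down the chromatin that carries a mark. All cells were SW480 grown in EMEM with fetal bovine serum and antibiotics and fixed with formaldehyde. Treated cells had received 10 mM sodium propionate (NaPr) or 1 mM sodium butyrate (NaBu), and the cells described here had received neither. The titles number the replicates but do not say whether they came from separate cultures, so every test below measures only the spread between these samples, which may be technical. SW480 is a single line, and each result holds for that line alone.

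Acetylation removes the positive charge of lysine and makes a docking site for bromodomains of reader proteins. H3K18ac is written mainly by the coactivators CBP and p300 and is known from active promoters and enhancers. H4K12ac is placed on newly made H4 by HAT1 before the histone enters chromatin, and in chromatin by the TIP60 and HBO1 complexes.

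The deposited values are peaks, called regions here, with a fold, the ratio of fragment pileup to local background at the summit. A summit was called promoter when it lay within 1 kb of the start of a protein-coding or lncRNA gene, gene body when it lay elsewhere inside such a gene, and intergenic otherwise. The sequences printed next come from the strongest regions of each kind, because base composition and place are the measures in which the marks differed. Each is a 200 bp window around a summit on hg38, plus strand, with CG dinucleotides in capitals. At the promoter and an exon of TEDC1 (chr14:105490255-105490454), both H3K18ac libraries and neither H4K12ac library had a region. The same held for a window at a promoter and an exon, in a region that overlaps MPND (chr19:4343185-4343384). The MPND promoter itself is not among the promoters of H3K18ac only named below. The windows hold 19 and 11 CG and are 72.5% and 62% GC.

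TEDC1: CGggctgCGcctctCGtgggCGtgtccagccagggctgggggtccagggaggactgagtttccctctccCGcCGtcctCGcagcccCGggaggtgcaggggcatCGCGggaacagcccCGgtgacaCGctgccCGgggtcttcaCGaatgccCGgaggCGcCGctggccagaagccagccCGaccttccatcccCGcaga
MPND: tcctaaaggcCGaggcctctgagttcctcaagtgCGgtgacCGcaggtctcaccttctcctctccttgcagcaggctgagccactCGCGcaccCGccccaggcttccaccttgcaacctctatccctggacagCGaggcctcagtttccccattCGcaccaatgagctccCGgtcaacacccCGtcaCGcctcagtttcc

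In an intron of LMNB1 (chr5:126786536-126786735), which encodes lamin B1, only the 2 H4K12ac libraries had a region. This window holds 1 CG and is 41% GC.

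LMNB1: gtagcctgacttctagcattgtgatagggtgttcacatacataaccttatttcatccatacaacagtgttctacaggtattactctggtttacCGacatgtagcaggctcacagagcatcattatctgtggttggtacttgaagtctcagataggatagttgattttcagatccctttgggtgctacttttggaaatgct

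All 4 libraries had a strong region over the promoter and an exon of KMT2E (chr7:105013328-105013527), a chromatin regulator, and of SRSF6 (chr20:43457945-43458144), a splicing factor. The windows hold 14 and 21 CG and are 58% and 63.5% GC.

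KMT2E: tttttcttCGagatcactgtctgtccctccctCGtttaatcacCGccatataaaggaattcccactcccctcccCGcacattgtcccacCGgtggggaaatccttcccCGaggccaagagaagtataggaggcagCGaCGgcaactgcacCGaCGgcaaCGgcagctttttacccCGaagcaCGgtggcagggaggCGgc
SRSF6: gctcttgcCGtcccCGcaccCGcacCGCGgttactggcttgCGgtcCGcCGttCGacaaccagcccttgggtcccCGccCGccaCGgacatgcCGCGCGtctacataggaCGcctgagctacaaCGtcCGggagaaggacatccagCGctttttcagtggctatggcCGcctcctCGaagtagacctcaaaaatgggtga

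The lists differ in length, depth and strength, and each of these bears on the comparison. H3K18ac replicates 1 and 2 had 76888 and 155103 regions, and H4K12ac replicates 1 and 2 had 208823 and 191194. Depth was estimated as the lowest background solved from the fold and p-values of weak regions, divided by the shortest region width. The estimate was 11.2 and 28.3 fragments per kb of genome for H3K18ac and 38.5 and 32 for H4K12ac. H3K18ac was the stronger mark over background. Its highest fold was 110 in replicate 1 and 72.2 in replicate 2, and that of H4K12ac 18.4 and 22.5. At rank 1000 the folds were 29.1, 18.4, 7.33 and 7.55 in the same order. Regions of the untreated input, sheared chromatin without antibody, lay under 10.3% and 6.03% of H3K18ac regions and under 2.91% and 3.06% of H4K12ac regions. The names of the lists carry 1 run tag for the acetyl libraries of untreated and NaPr cells and the untreated input, and another for those of NaBu cells. Since list length alone can move a share, the main comparisons are also given with the strongest 76888 regions of every library by p-value, the length of the shortest list (equal numbers). The part of depth and input in the differences was not tested.

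H4K12ac regions lay inside genes more often than H3K18ac regions, and H3K18ac regions lay between genes more often. The gene body share of summits was 50.6% and 55.5% in the H3K18ac replicates and 72.1% and 70.2% in the H4K12ac replicates, in a genome that is 54.9% gene body by the same rule. Both H4K12ac libraries thus lay well above both H3K18ac libraries. The means were 53.1% ± 3.49 (SD, n = 2) and 71.2% ± 1.31 (SD, n = 2), a difference of −18.1 percentage points (two-sided exact permutation p 0.333, the smallest that 2 against 2 libraries can give). The intergenic share was 26.2% and 29.8% for H3K18ac and 16.1% and 17.1% for H4K12ac, against 42.8% of the genome. Here both H3K18ac libraries were higher, by 11.5 points on average (exact p 0.333). With equal numbers of regions the gene body difference was −11.3 points and the intergenic difference 10.9 points, again with no overlap of the libraries.

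Promoter share and width did not separate the marks in the same way. Promoter summits made up 23.2% and 14.6% of H3K18ac regions and 11.9% and 12.7% of H4K12ac regions, against 2.22% of the genome. Median width was 514 and 290 bp for H3K18ac and 287 and 285 bp for H4K12ac. In both measures H3K18ac replicate 1, the library of lowest estimated depth and the shortest list, stood apart from the other 3. Without it the difference in width fell from 116 to 4 bp and that in promoter share from 6.64 to 2.38 points. With equal numbers the promoter shares were 23.2%, 24.4%, 23.5% and 23.4%, and the widths 514, 407, 450 and 409 bp, and the groups overlapped in both (exact p 1 for each). Among promoter regions alone the median widths did not overlap, at 915 and 562 bp for H3K18ac and 499 and 478 bp for H4K12ac. At equal numbers they were 915 and 670 bp against 650 and 612 bp. Very wide regions belonged mostly to H3K18ac. Regions of 4 kb or more numbered 1269 and 317 for H3K18ac and 168 and 109 for H4K12ac, and the longest were 28108 and 13297 bp against 12562 and 9326 bp. The widest of both marks included regions at SLC2A1, the glucose transporter GLUT1, at LIF, a cytokine, at ACTN4, an actin crosslinker, and in an intergenic area nearest to KLF14.

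**Figure D1:**
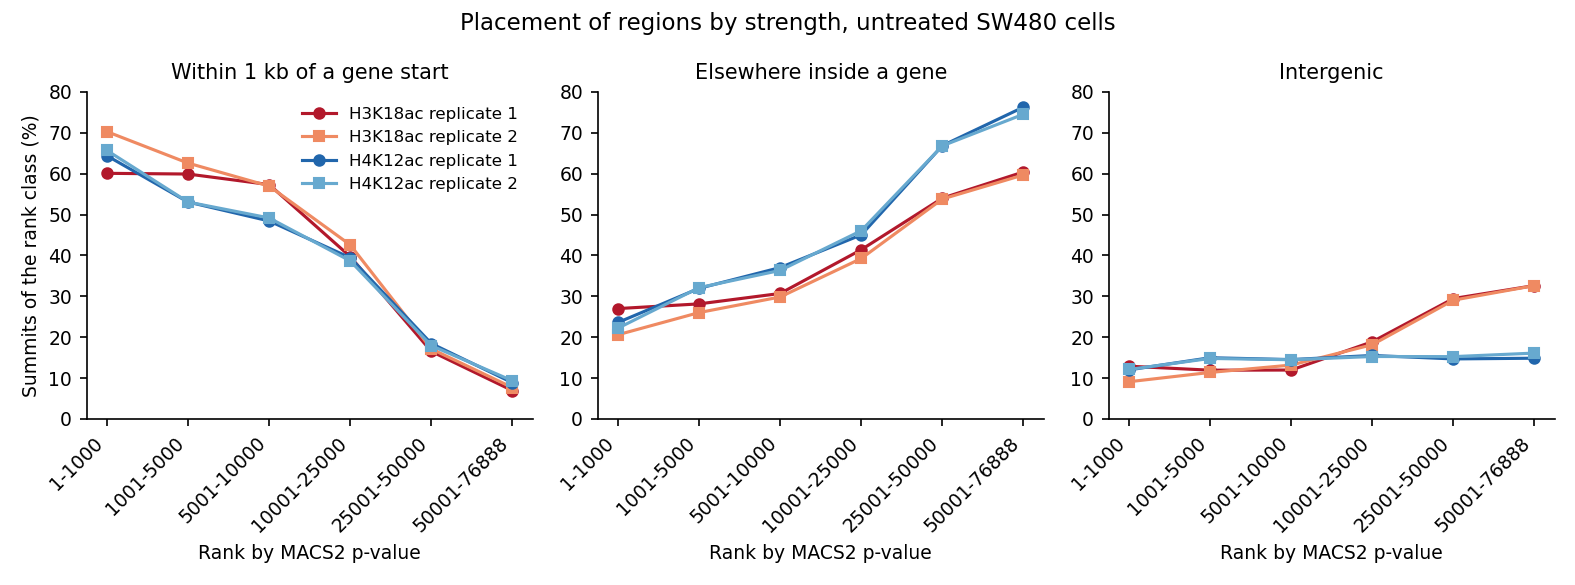
Share of summits (y, %) within 1 kb of a gene start, elsewhere inside a gene, or intergenic, for regions ranked by MACS2 p-value (x, rank class, strongest at left) in each of the 4 untreated libraries (lines, no error bars since each point is 1 library). Gene body shares part from rank 1001 on, and intergenic shares are higher for H4K12ac at ranks 1001 to 10000 and higher for H3K18ac from rank 10001 on, with H3K18ac near 30% and H4K12ac near 15% from rank 25001.

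The difference in placement changed with the rank of the regions. Among the strongest 1000 regions, promoters took 60.1% and 70.3% for H3K18ac and 64.4% and 65.7% for H4K12ac, and intergenic summits 12.9%, 9.1%, 12% and 12.1%. The marks overlapped in both. At ranks 1001 to 5000 the promoter share was 59.9% and 62.6% for H3K18ac and 53.1% in both H4K12ac libraries, and in the next 5000 ranks it was 57.3% and 57.0% against 48.4% and 49.2%. In these strong regions H3K18ac thus lay at promoters more often. Among ranks 50001 to 76888 the gene body share was 60.4% and 59.7% for H3K18ac and 76.3% and 74.6% for H4K12ac, and the intergenic share 32.6% and 32.6% against 14.9% and 16.1%. At ranks 1001 to 5000 the intergenic order was the opposite, with 11.9% and 11.4% for H3K18ac and 15% and 14.8% for H4K12ac, as it was in the next 5000 ranks. Gene body regions per intergenic region came to 1.93 and 1.86 for H3K18ac and 4.49 and 4.11 for H4K12ac over the whole lists.

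Base composition went with the mark. The 200 bp summit windows were 53.7% and 53.2% GC in H3K18ac and 48.3% and 49.3% GC in H4K12ac, a difference of 4.65 points with no overlap (exact p 0.333). With equal numbers they were 53.7%, 55.4%, 51.3% and 52.0%. Short motifs were counted in the same windows on both strands and set against windows 5 kb away. GGGCGG, the GC box read by SP and Krüppel-like factors, was in 14.3% and 10.4% of H3K18ac windows and 6.83% and 7.56% of H4K12ac windows. Its log2 ratio over the flanks was 1.18 and 0.84 for H3K18ac and 0.36 and 0.45 for H4K12ac. For CCGGAAG, read by ETS factors, the log2 ratios were 1.01, 0.78, 0.36 and 0.46. With equal numbers the GC box ratios were 1.18, 1.27, 0.90 and 0.98, so the order was kept and the gap was smaller. TGACTCA, the AP-1 motif, had ratios of −0.20, 0.05, 0.03 and 0.09, in which the marks overlapped. Of the 11 motifs searched none could pass with these 4 libraries, whose smallest exact p is 0.333.

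Around the starts of 20033 protein-coding genes, coverage by regions of both marks flanked the start and dipped over the 100 bp before it. The dip in coverage was deeper for H4K12ac. Mean coverage of that bin was 39.0% and 29.3% for H3K18ac and 16.9% and 17.7% for H4K12ac. The highest coverage in the kb upstream was 46.1%, 40.4%, 38.9% and 37.4%, so upstream of the dip the libraries were much closer. Coverage in the dip was 84.7% and 72.5% of that upstream high for H3K18ac and 43.5% and 47.2% for H4K12ac, a difference of 33.2 points (exact p 0.333). It was 32.2 points with equal numbers. Downstream of the start the highest coverage was 51.8% in both H3K18ac libraries and 40.0% and 41.0% in the H4K12ac libraries. The summits themselves avoided this bin alike in both marks, with 34.0%, 33.0%, 29.0% and 30.9% of the mean count per bin. Coverage of a bin also depends on region width. The median width of promoter regions was 915 and 562 bp for H3K18ac and 499 and 478 bp for H4K12ac. The part of width in the dip was not tested. The measure of the dip was chosen after the profiles had been seen.

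**Figure D2:**
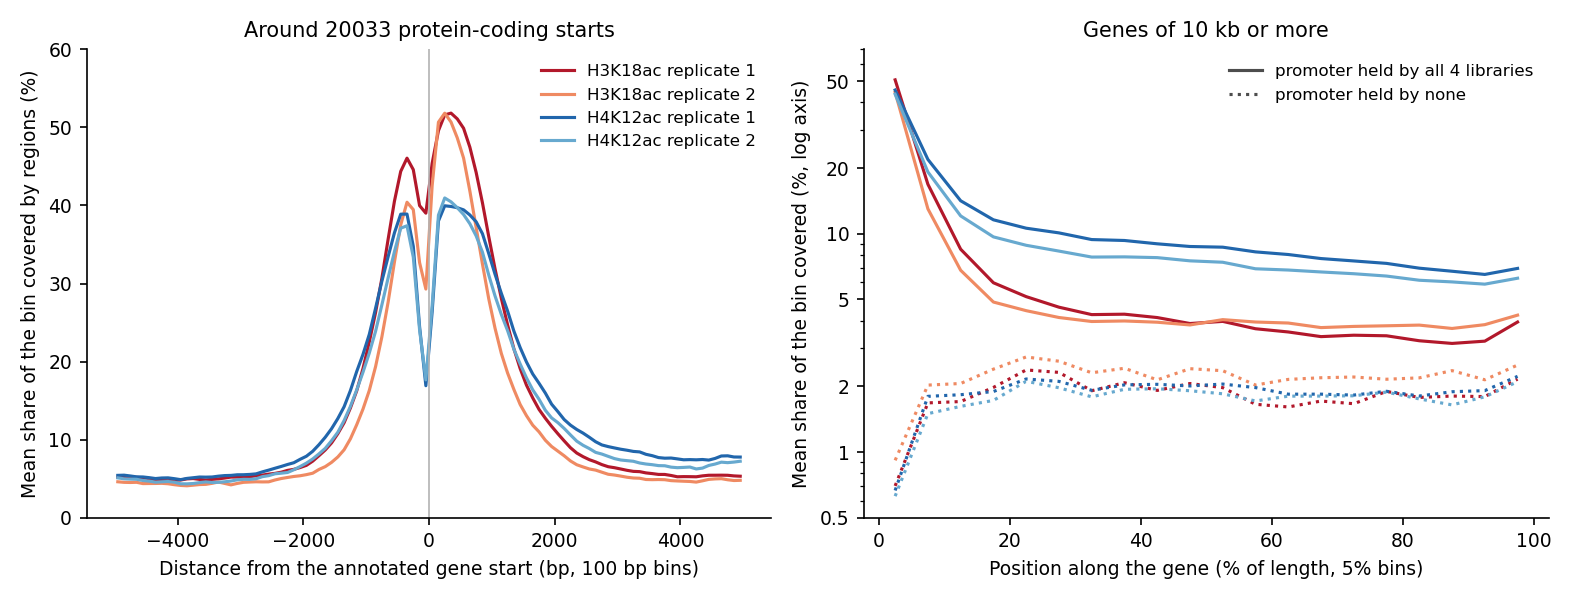
Left, mean share of each 100 bp bin covered by regions (y, %) against the distance from the annotated start of 20033 protein-coding genes (x, bp). Right, mean coverage (y, %, log axis) along genes of 10 kb or more in bins of 5% of their length (x) for genes whose promoter was held by all 4 libraries (solid) or by none (dotted); each line is 1 library, and the H4K12ac lines lie near 8% and the H3K18ac lines near 4% at the middle of the solid set.

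Past the start, H4K12ac ran on into the gene and H3K18ac did not to the same degree. Mean coverage 3 to 5 kb downstream of starts was 1.11 and 1.12 times that 3 to 5 kb upstream for H3K18ac, and 1.5 and 1.46 times for H4K12ac. A promoter is called held when a region overlaps the kb on either side of the start. In the 9158 genes of 10 kb or more whose promoter was held by all 4 libraries, coverage at 50 to 55% of the gene's length was 3.97% and 4.04% in the H3K18ac libraries and 8.68% and 7.41% in the H4K12ac libraries. At equal numbers most of this gap was gone. Mean coverage of the whole body in these 9158 genes was 4.44% and 4.21% against 9.24% and 7.88% with all regions, but 4.44% and 2.92% against 4.67% and 4.10% at equal numbers, where the marks overlapped. Where no library held the promoter, in 3389 genes, coverage at 50 to 55% of the length was 1.97%, 2.36%, 2.05% and 1.85% with all regions, and the marks overlapped. Of all gene body regions, 54.0% and 48.6% for H3K18ac and 75.2% and 73.3% for H4K12ac lay in genes whose promoter was held by all 4. With equal numbers the shares were 54.0%, 51.0%, 74.1% and 72.8%.

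Overlapping regions of the 4 lists were joined into 384960 regions, of which 31266 (8.12%) were held by all 4 libraries. Those held by both libraries of one mark and by neither of the other are the regions of that mark only. There were 6879 regions of H3K18ac only, 1.79% of the joined regions, and 31186 of H4K12ac only, 8.1%. H3K18ac thus had 18.1% of the regions of 1 mark only (Wilson 95% interval 17.7% to 18.5%, counting error only). The order was the opposite with equal numbers, where 8064 regions (5.11% of 157695) were of H3K18ac only and 5327 (3.38%) of H4K12ac only, and the H3K18ac share was 60.2%. Leaving out a library also changes the rule, since the mark left with 1 library needs only that one. The share was then 71.2% without H3K18ac replicate 1 and 42.9% without replicate 2.

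The regions of either mark alone lay in different places. Summits of regions of H4K12ac only lay 89.1% in gene bodies, 2.96% at promoters and 7.89% between genes, and their windows were 46.3% and 46.5% GC in replicates 1 and 2. Those of H3K18ac only lay 51.4% in gene bodies, 13% at promoters and 35.6% between genes, at 54.6% and 55.0% GC. These are the sets from the whole lists. Regions held by all 4 had 39.5% to 41.6% of their summits at promoters. Input regions lay under 11.1% and 10.8% of the regions of H3K18ac only and under 0.305% and 0.308% of those of H4K12ac only. Over the 31266 shared regions the order of folds was alike between replicates, with Spearman's rho 0.846 for H3K18ac and 0.752 for H4K12ac, and less so between marks, with 0.621 to 0.665. These are descriptions across regions of the same 4 libraries, which share fold and depth.

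Most promoters that carried one mark carried the other. Of 20033 protein-coding promoters, H3K18ac replicates held 12878 and 13616 and H4K12ac replicates held 12731 and 12698. All 4 libraries held 11455 and none held 5197. Promoters of H3K18ac only numbered 364 (1.82%) and those of H4K12ac only 183 (0.913%). With equal numbers they were 769 (3.84%) and 52 (0.26%), so H3K18ac had 66.5% (Wilson 62.5% to 70.4%) and 93.7% of them. Outside input regions the order turned, with 336 against 814 promoters. The promoters of H3K18ac only were CpG-rich (observed over expected CpG of 0.6 or more) in 55.8% of cases, those of H4K12ac only in 18% and those held by all 4 in 83.8%. An input region lay at 22.5%, 2.73% and 27.1% of these promoters.

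The strongest promoters of H3K18ac only had folds above those of H4K12ac only, in marks whose fold ranges also differ. TEDC1, a centriole protein whose window is printed above, had folds of 14.8 and 8.58 in H3K18ac replicates 1 and 2. ZBP1, a sensor of Z-form nucleic acids, had 14.8 and 6.62. ADAM8, a surface metalloprotease, had 13.8 and 6.11. Neither H4K12ac library had a region at any of these. The others by the same rule were the histone gene H2BC9, the anion exchanger SLC4A2, LONRF1, the neighbours NBPF10 and NOTCH2NLA under 1 region, RGL3, the adaptor SHC2, FAM83H, and the heat shock factor gene HSF4, with folds of 9.44 to 14.4 in replicate 1 and 3.92 to 8.32 in replicate 2. Regions of the untreated input lay at SLC4A2 and RGL3. NBPF10 and NOTCH2NLA belong to families of near-identical copies, so where their reads came from is uncertain. When regions over input were set aside, SHC2 was held by neither H3K18ac library and SLC4A2 and RGL3 by 1 each, so these 3 were no longer called.

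Among promoters of H4K12ac only, FTSJ3, which acts in ribosomal RNA processing, was the strongest with folds of 6.56 and 6.97. FGD2, an activator of CDC42, had 3.66 and 4.00, and BANP, a nuclear DNA-binding protein, 3.45 and 4.23. The other 9 were ZNF772, the ganglioside cofactor GM2A, TUBGCP4 of the gamma-tubulin ring, the TLR4 co-receptor LY96, MCCD1, the BMP effector SMAD9, the forkhead gene FOXI3, the receptor PILRB and the proteasome ATPase PSMC2, with folds of 2.87 to 3.85. Their start is the 5′ end of the whole gene record, and where another start inside the record is used these regions count as promoter by position only. At equal numbers all 24 promoters kept their call. They had been picked for strong regions, and shortening a list adds no region to the other mark, so this was close to given. At the strongest promoters held by all 4, SRSF6 had folds of 78.5, 62.8, 13.4 and 14.9, BICRAL, a chromatin remodelling subunit, 66.7, 46.1, 13.1 and 16.9, and DDX17, an RNA helicase, 69.3, 47.8, 13.5 and 12.5. HCFC1 and TMEM187 shared a region of 66.2, 40.7, 12.3 and 13.5, and HLA-DMA and BRD2 shared another of 76.3, 35.2, 12.0 and 17.1, near 2 input regions.

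Gene bodies gave longer lists of genes than promoters did. Body coverage is the percentage of a gene of 10 kb or more, beyond 1 kb from any start, that regions cover. Of 14901 bodies, both H4K12ac libraries covered 6704 (45%) more than either H3K18ac library did, and both H3K18ac libraries covered 2021 (13.6%) more than either H4K12ac library. With equal numbers these were 3513 (23.6%) and 3217 (21.6%), so most of the excess of H4K12ac over all genes was not seen at equal numbers. Split by promoter, the direction was the same at both lengths. Among the 9158 genes with a promoter held by all 4, the counts were 5775 for H4K12ac against 817 for H3K18ac, or 3180 against 1513 at equal numbers. Among the 3389 with no held promoter they were 442 against 559, or 159 against 791. Bodies covered by 25% or more numbered 397 and 265 in the H3K18ac libraries and 742 and 497 in the H4K12ac libraries. At equal numbers they were 397 and 173 against 270 and 208, and the marks overlapped.

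**Figure D3:**
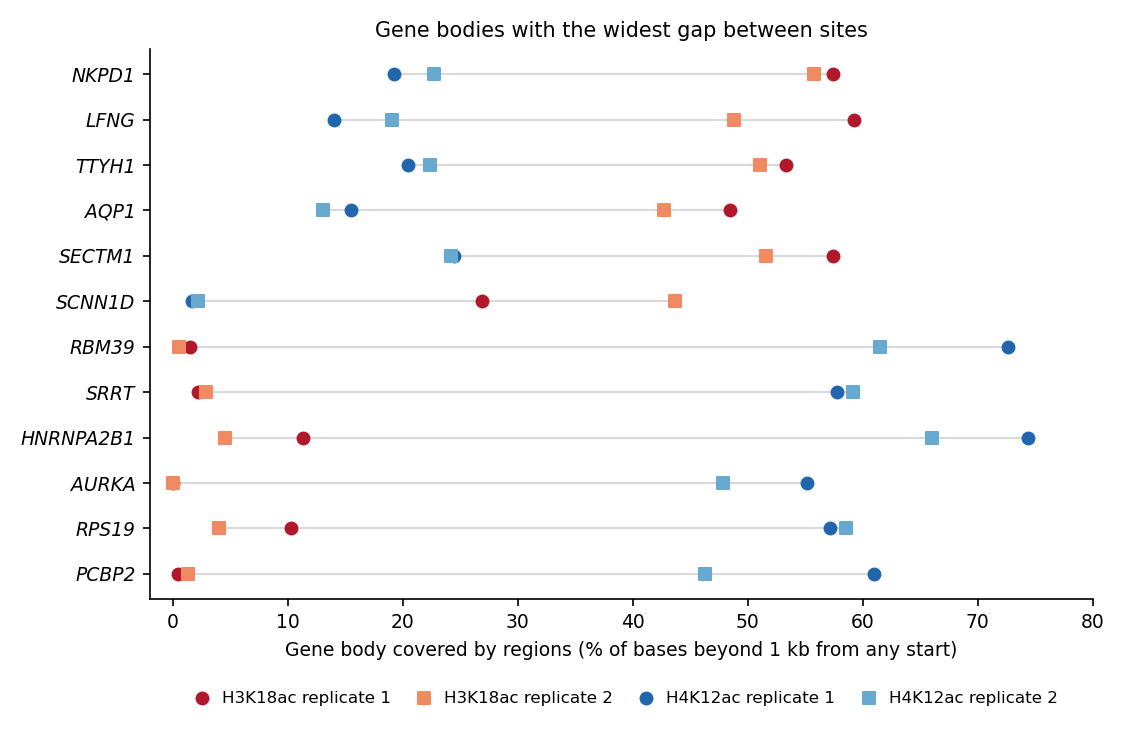
Percentage of the gene body covered by regions (x) in each of the 4 untreated libraries (points) for the 6 genes with the widest gap in each direction (y). In the upper 6 genes both H3K18ac points lie right of both H4K12ac points, and in the lower 6 the H4K12ac points lie at 46.3% or more and the H3K18ac points at 11.3% or less.

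In the 6 bodies with the widest gap toward H4K12ac, H3K18ac regions covered 11.3% or less, beside medians of 0.88% and 1.46% over all bodies. RBM39, a splicing factor (chr20:35701347-35742312), was covered by 1.5% and 0.52% in H3K18ac and by 72.6% and 61.5% in H4K12ac. HNRNPA2B1, an RNA-binding protein (chr7:26171151-26201529), had 11.3% and 4.49% against 74.4% and 66.0%. SRRT, which works with the nuclear cap-binding complex, had 2.16% and 2.91% against 57.7% and 59.2%. H4K12ac regions thus covered most of each of these bodies. The promoter of RBM39 was held by all 4, with folds of 78.7, 37.1, 10.8 and 12.2. The mitotic kinase AURKA had 0% and 0% against 55.1% and 47.8%, the ribosomal protein gene RPS19 10.3% and 4.01% against 57.2% and 58.5%, and the RNA-binding protein gene PCBP2 0.44% and 1.30% against 61.0% and 46.3%. Input regions lay at the promoters of RBM39 and RPS19. The gap, taken between the nearest libraries of both marks, was narrower in all 6 at equal numbers. It went from −46.9 to −19.2 points at RPS19, from −45.0 to −17.1 at PCBP2, from −47.8 to −27.2 at AURKA, from −54.8 to −36.7 at SRRT, from −60.0 to −43.4 at RBM39 and from −54.7 to −51.0 at HNRNPA2B1.

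In the 6 bodies with the widest gap toward H3K18ac, H4K12ac was lower but mostly present. LFNG, a glycosyltransferase that tunes Notch (chr7:2512529-2529177), was covered by 59.3% and 48.8% in H3K18ac and by 14.0% and 19% in H4K12ac, with no region of either mark at its annotated start. AQP1, a water channel, had 48.4% and 42.7% against 15.4% and 13.1%. SCNN1D, a sodium channel subunit, had 26.9% and 43.6% against 1.70% and 2.22%. H4K12ac was thus present in the first pair and nearly absent from the last. NKPD1 had 57.4% and 55.7% against 19.2% and 22.7%, and TTYH1 53.3% and 51.0% against 20.4% and 22.3%. SECTM1, a secreted and membrane protein, had 57.4% and 51.6% against 24.5% and 24.2%, but an input region lies at its promoter, and outside input regions its gap turned to −9.47 points. NKPD1 lost its gap there as well. At equal numbers the 6 gaps were 23.3 to 37.6 points, against 24.7 to 33.0 with all regions.

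Gene lists differed in the direction of their bodies. In the proteasome, the complex that degrades proteins, both H4K12ac libraries covered 24 of 27 bodies more and H3K18ac none, beside 45% and 13.6% of all bodies. At equal numbers it was 19 against 0, beside 23.6% and 21.6%. Of the nuclear genes for mitochondrial oxidative phosphorylation, 36 of 43 were covered more by H4K12ac and none more by H3K18ac (23 against 1 at equal numbers). Cytosolic ribosomal proteins gave 17 against 1 of 25 (12 against 2). Histone acetyltransferases gave 19 against 0 of 23 (12 against 2), and acetyl-lysine readers 20 against 3 of 31 (13 against 6). In each of these lists most promoters were held by all 4 libraries. Of all bodies with such a promoter, 63.1% were covered more by H4K12ac and 8.92% more by H3K18ac (34.7% and 16.5% at equal numbers). With all regions the readers, at 64.5% and 9.68%, and ribosomal proteins, at 68% and 4%, lay near those shares. The other lists lay further toward H4K12ac, at 82.6% to 88.9%.

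Single members of these lists show the sizes. PSMD11, a lid subunit of the proteasome, was covered by 0% and 0.52% in H3K18ac and by 38.2% and 24.6% in H4K12ac. PSMC2, met above for its promoter, had 3.00% and 1.53% against 40.7% and 29.8%. Among acetyltransferases, KAT7, the enzyme of the HBO1 complex, had 0.68% and 0.44% against 14.5% and 14.6%, HAT1 0.74% and 0.62% against 18.1% and 13.7%, and EP300, which encodes p300, 0.091% and 1.11% against 15% and 11.2%. These writer genes thus carried H4K12ac over part of their bodies. The reader gene BRD2 had 7.5% and 7.5% against 30.8% and 23.5%, and the reader gene DPF1 21.1% and 23.6% against 2.10% and 0%. These members have the widest gaps of their lists and were chosen after their values were seen.

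Keratins and several lists of other tissues went the other way. Of 13 keratin bodies, filament proteins of epithelia, H3K18ac covered 8 more and H4K12ac 1 (8 against 0 at equal numbers), among them KRT78 with 16.1% and 22.2% against 1.70% and 0%. The other counts below stand beside the same background, 13.6% for H3K18ac and 45% for H4K12ac with all regions and 21.6% and 23.6% at equal numbers. Bodies without a held promoter leaned to H3K18ac as a whole at equal numbers, with 23.3% against 4.69%. Mesenchymal genes gave 5 for H3K18ac against 1 of 13 (6 against 0 at equal numbers), neuronal genes 4 against 1 of 12 (7 against 0), endothelial genes 4 against 0 of 6, lymphoid and myeloid genes 3 against 1 of 9 (4 against 0), hepatocyte genes 1 against 0 of 9 (2 against 0) and skeletal muscle genes 1 against 1 of 8 (3 against 0). The H3K18ac share at equal numbers was 22.2% for hepatocyte genes, near the background, and 37.5% to 66.7% for the other 5. Colon epithelium gave 0 against 4 of 16 with all regions and 2 against 0 at equal numbers.

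Regulatory lists were mixed, and several lay near the background. Krüppel-like factors gave 4 against 5 of 11 with all regions and 7 against 0 at equal numbers, and Wnt and beta-catenin genes 7 against 18 of 33, or 9 against 8. CTNNB1, which encodes beta-catenin, was covered by 13.8% and 10.6% in H3K18ac and 28.2% and 25.9% in H4K12ac, and CSNK1A1, a kinase that marks it for decay, by 2.14% and 2.86% against 43.1% and 32.2%. TGF-beta genes gave 1 against 13 of 27 (6 against 8), AP-1 genes 2 against 4 of 10 (3 against 2) and cyclins and CDK inhibitors 1 against 6 of 14 (3 against 4). The H4K12ac shares of these 3 lists were 48.1%, 40% and 42.9%, close to the 45% of all bodies. Deacetylases and sirtuins gave 2 against 9 of 15 (2 against 4), HOX genes 1 against 3 of 8 at both lengths, and enterocyte and goblet cell genes 5 against 3 of 25 (5 against 1). The counts are descriptions, and no list was tested as a set.

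**Figure D4:**
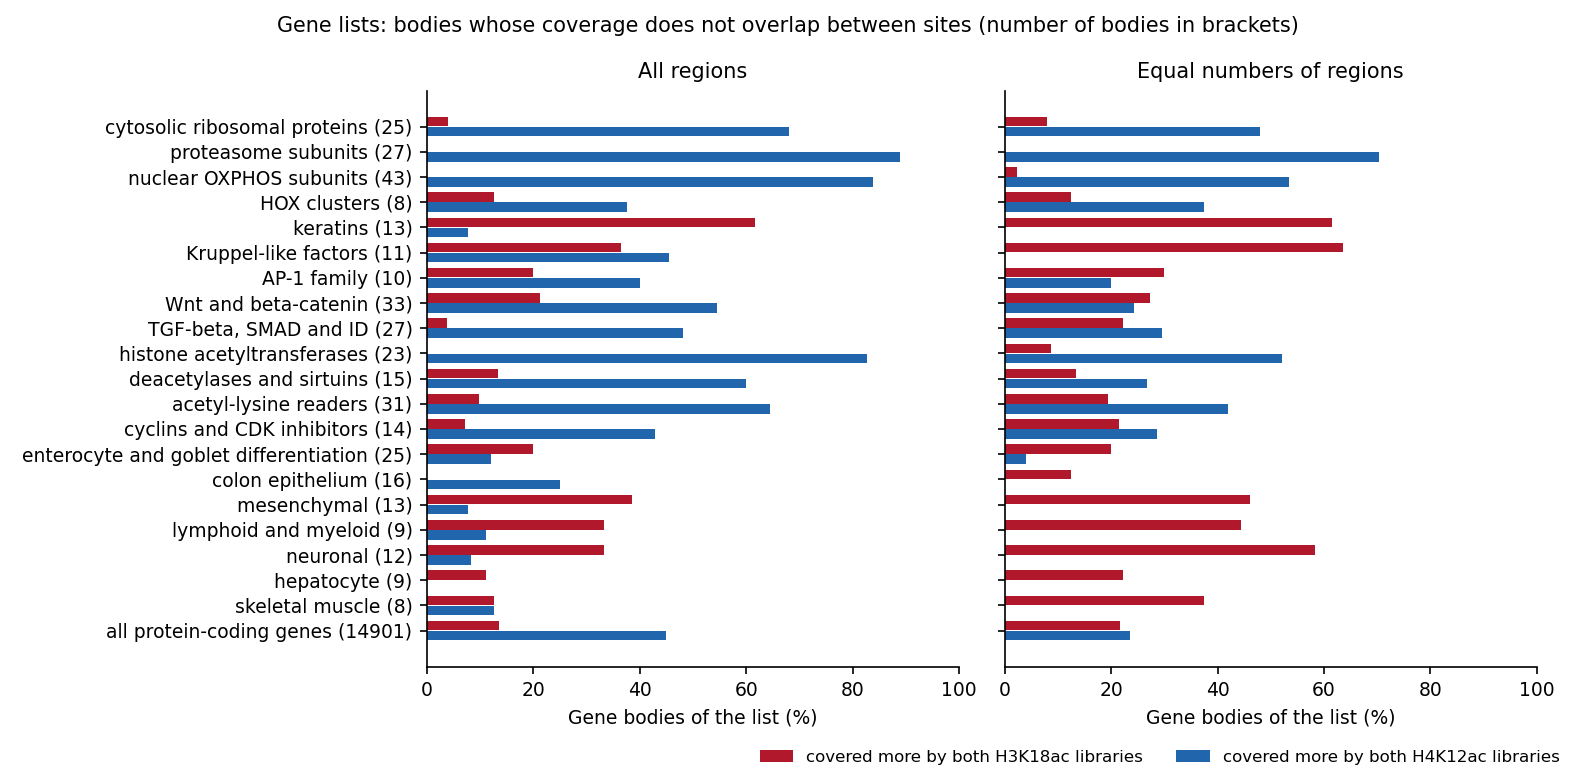
Percentage of each list's gene bodies (x) that both H3K18ac libraries covered more than either H4K12ac library (red) or the reverse (blue), with all regions (left) and equal numbers (right), for lists of 8 bodies or more (y, number of bodies in brackets). Proteasome bodies reach 88.9% blue and 0% red at left, and keratins 61.5% red and 7.69% blue.

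At promoters, all 4 libraries held most members of several lists. They held 77 of 86 cytosolic ribosomal protein genes, 34 of 39 proteasome genes, 68 of 74 oxidative phosphorylation genes, 23 of 26 acetyltransferases and 17 of 19 AP-1 genes, against 57.2% of all promoters. They held 15 of 25 colon epithelium genes, 8 of 18 mesenchymal genes, 3 of 16 lymphoid and myeloid genes, 1 of 8 endothelial genes, 3 of 13 neuronal genes, 3 of 14 hepatocyte genes and 0 of 13 skeletal muscle genes. Of the 7 cell type lists, colon epithelium, the tissue of the label, thus had the highest share, 60% and near that of all promoters, with KRT8 and KRT18 under a shared region of 54.2, 22.6, 6.54 and 5.38 fold, while only 2 of 36 enterocyte and goblet cell genes were held by all 4. VIM, a mesenchymal marker, was also held by all 4, at 26.3, 7.63, 5.49 and 5.57. Olfactory receptors were held by all 4 in 1 of 415 cases.

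Few list members had a promoter of 1 mark only. H3K18ac alone held SMAD7, an inhibitor of TGF-beta signalling, at 7.54 and 7.38 fold, FZD10, a Wnt receptor, at 5.53 and 4.24, and the keratins KRT16 at 4.35 and 2.38 and KRT17 at 4.25 and 3.14. H4K12ac alone held SMAD9 at 2.96 and 3.32 fold and PSMC2 at 2.87 and 2.96. KRT16 was held by fewer H3K18ac libraries at equal numbers, and the others kept their call. These were singled out after their values were seen. Among members held by all 4, the early response gene FOS had folds of 40.4, 56.1, 15.2 and 19.7, the cyclin gene CCND1 45.7, 30.0, 7.24 and 6.81, and the proteasome ATPase PSMC1 46.9, 29.2, 9.59 and 11.7.

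The acetyl libraries of NaPr and NaBu cells, 2 of each mark and treatment, had no part in choosing these regions, promoters and bodies. Of these, H3K18ac NaPr replicate 1 stood apart from its group. Its gene body share was 71.7% and it had 4.48 gene body regions per intergenic region, near the untreated H4K12ac libraries and far from the 54.1% and 1.84 of its own replicate. Results are therefore given with and without it. Over the 3 conditions the GC difference recurred, at 4.65, 4.08 and 4.34 points in untreated, NaPr and NaBu cells with no overlap in any of them. Its mean was 4.36 points (exact permutation p 0.00926 over all arrangements within condition, adjusted by Benjamini-Hochberg over 5 properties 0.0463), and 4.45 points without that library. As for the other properties below, these arrangements include the untreated libraries, in which the difference was first described. The treated libraries alone have 36 arrangements, with which an exact permutation p cannot fall below 0.0556.

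Placement recurred less evenly. The gene body difference was −18.1, −7.95 and −0.76 points in untreated, NaPr and NaBu cells (mean −8.94, exact permutation p 0.0833, adjusted 0.139). Without H3K18ac NaPr replicate 1 the NaPr value was −16.8 and the mean −11.9. That library was set apart by its own gene body and intergenic placement. Leaving it out therefore gives no separate test of these shares, and only the sizes are given. The intergenic mean was 4.70 points (exact permutation, adjusted 0.174) and 6.93 without that library. With the strongest 11680 regions of each library, the length of the shortest treated list, it turned to −2.76 points, as it did above among ranks 1001 to 5000. Promoter share differed by 4.23 points (exact permutation, adjusted 0.287) and width by 68.3 bp (adjusted 0.139). Among the strongest 11680 regions both differences were larger and the marks overlapped in no condition. That number is the whole list of H4K12ac NaBu replicate 2, of which 2917 regions had q under 0.05. In NaBu cells the strongest regions of other libraries thus stood beside many weak ones of this library. Promoter share was then higher in H3K18ac by 7.02, 26.1 and 12.2 points in untreated, NaPr and NaBu cells (mean 15.1, exact permutation, adjusted 0.0116), and width by 486.5, 690.25 and 549.5 bp (mean 575, exact permutation, adjusted 0.0116). The dip before the start was a measure chosen on the untreated profiles, so the treated libraries alone test it. H3K18ac kept 53.3% and 64.3% of its upstream high there in NaPr cells and 70.7% and 49.0% in NaBu cells. H4K12ac kept 45.7% and 44.8% in NaPr cells and 41.6% and 35.3% in NaBu cells. H3K18ac thus lay above H4K12ac within both treatments. The upstream high itself was 20.8% to 42.1% coverage in the treated H3K18ac libraries. In H4K12ac it was only 9.31% and 6.81% in NaPr cells and 11.5% and 5.56% in NaBu cells, against 38.9% and 37.4% untreated. The H4K12ac shares of treated cells therefore rest on low coverage, and the part of this in the difference was not tested. The mean difference in treated cells was 17.5 points (exact permutation p 0.0556, the smallest that 36 arrangements can give, not adjusted with the 5 properties), and 20.3 without H3K18ac NaPr replicate 1 (exact permutation p 0.0556). Set against the downstream high, it was 3.29 points (exact permutation p 0.389).

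**Figure D5:**
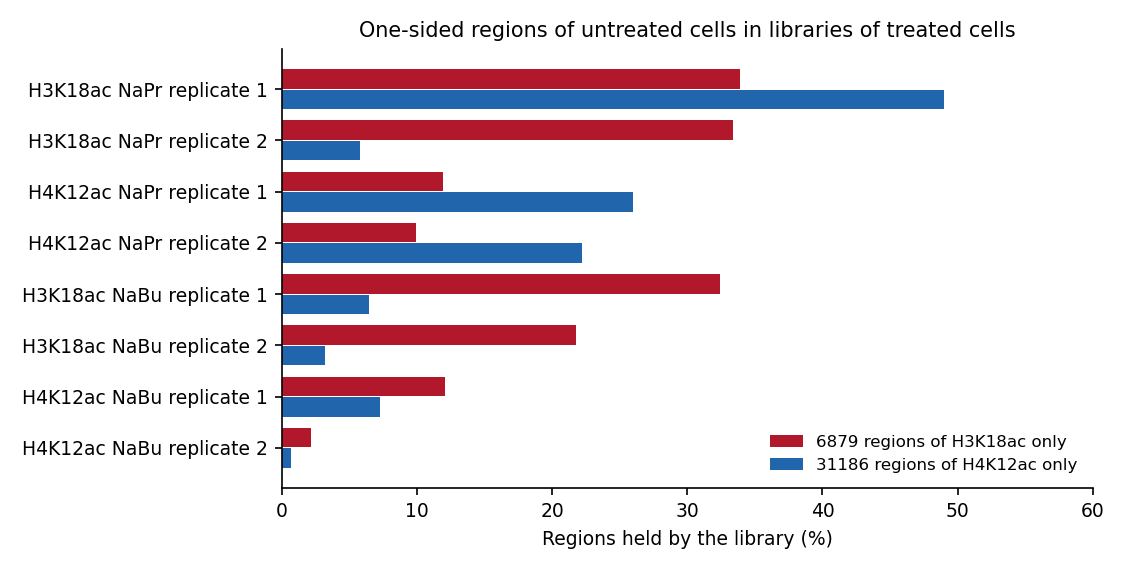
Percentage of the 6879 regions of H3K18ac only (red) and the 31186 regions of H4K12ac only (blue) of untreated cells that each acetyl library of treated cells held (x), by library (y). Red exceeds blue in 3 of the 4 H3K18ac libraries and in both H4K12ac NaBu libraries, and blue exceeds red in both H4K12ac NaPr libraries and in H3K18ac NaPr replicate 1.

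Regions of H3K18ac only were found again more often in H3K18ac libraries. H3K18ac libraries of treated cells held 33.9% and 33.4% of them in NaPr and 32.4% and 21.8% in NaBu. H4K12ac libraries held 11.9% and 9.90% in NaPr and 12.1% and 2.15% in NaBu. Regions held by all 4 untreated libraries were also found less often in H4K12ac libraries. H3K18ac libraries held 95.4% and 75.7% of those in NaPr and 76.1% and 62.5% in NaBu. H4K12ac libraries held 52.3% and 44.2% in NaPr and 46.1% and 19.98% in NaBu. The lower recovery in H4K12ac libraries was thus not limited to regions of H3K18ac only. Of the regions of H4K12ac only, H4K12ac libraries held 26.0% and 22.2% in NaPr cells but 7.29% and 0.664% in NaBu cells. H3K18ac libraries held 49.0% and 5.76% of these in NaPr, the first being the library in doubt, and 6.44% and 3.18% in NaBu. The log2 ratio of the share of H3K18ac-only regions held over that of H4K12ac-only regions was higher in H3K18ac libraries by 1.74 (exact permutation p 0.0556, the smallest that 36 arrangements can give), and by 2.51 without H3K18ac NaPr replicate 1 (exact permutation p 0.0556). For promoters the difference was 1.57 and for body coverage 1.33 (exact permutation p 0.0556 each). Without H3K18ac NaPr replicate 1 they were 1.91 and 1.80. In NaBu cells, whose run tag differs and whose lists had as few as 11680 regions, treatment and run cannot be told apart.

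The named bodies followed this in part. Both H3K18ac libraries lay above both H4K12ac libraries in all 6 of the bodies covered more by H3K18ac in NaPr cells and in 5 of 6 in NaBu cells, where AQP1 overlapped. Of the 6 covered more by H4K12ac, the marks overlapped in all 6 in NaPr cells, while all 6 were higher in H4K12ac without H3K18ac NaPr replicate 1, and none was higher in H4K12ac in NaBu cells. RBM39 was covered by 31.4% and 23.8% in H4K12ac of NaPr cells, by 66.1% and 1.70% in H3K18ac of NaPr cells, and by 3.57% or less in all 4 NaBu libraries. AURKA had 20.2% and 18.5% against 34.0% and 1.32% in NaPr cells and at most 2.27% in NaBu. H4K12ac over these genes was therefore seen in NaPr cells and little in the NaBu lists. LFNG was covered by 57.3% and 36.8% in H3K18ac of NaBu cells against 15.7% and 0% in H4K12ac, and by 22.8% and 25.7% against 1.99% and 0% in NaPr cells. TTYH1 had 42.1% and 32.3% against 17.3% and 4.54% in NaBu and 30.9% and 13% against 4.91% and 1.21% in NaPr. For these genes the H3K18ac libraries stayed above the H4K12ac libraries in both treatments. Of all protein-coding promoters, H3K18ac libraries held 65.6% and 54.2% in NaPr cells and 58.6% and 43.8% in NaBu cells. H4K12ac libraries held 33.0% and 26.2% in NaPr cells and 34.0% and 14.8% in NaBu cells. A lean to H3K18ac libraries is thus common to promoters at large. The 12 named promoters of H3K18ac only were each held by more H3K18ac than H4K12ac libraries of treated cells, and 8 of them without the library in doubt, the other 4 being held by none. TEDC1, for one, was held by 3 of 4 H3K18ac and 0 of 4 H4K12ac libraries. Of the 12 promoters of H4K12ac only, 3 were held by more H4K12ac libraries, 4 by more H3K18ac libraries and 5 by as many of each. PSMC2 was held by 1 H3K18ac library, the one in doubt, and by 3 H4K12ac libraries, while FGD2 was held by 3 and 0 and GM2A by 3 and 2. Without the library in doubt, 6 were held by a greater share of H4K12ac libraries and 4 by a greater share of H3K18ac libraries.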

How the data were processed

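Per the submitters' processing notes and the methods of the study, the authors demultiplexed reads with bcl2fastq 2.17.1, trimmed them with cutadapt 1.8.1, aligned them to hg38 with Bowtie2 2.3.1 and called peaks with MACS2 2.1.0 in an ENCODE-type pipeline. The deposited lists were called per library at a p-value threshold of 0.01, without pooling replicates, and their names state that blacklisted regions were filtered. The authors' fold values are ratios of pileup to local background at the summit. The deposited −log10 p-values and −log10 q-values were used to rank and filter regions within a list. The other files of the series were not used here.

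Genes came from GENCODE 44 on hg38, with 1 start per gene. Each property is 1 value per library, compared by two-sided exact permutation of library labels, within condition where treated libraries entered. A region was held with 1 bp of overlap. Computation used Python 3.11.15, numpy 2.4.6, pandas 2.3.3, scipy 1.17.1 and matplotlib 3.10.9, and scripts were tested on simulated data. Depth was estimated from fold and p-values, and intervals cover counting error only. The lists carry no read counts.

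Members, gene lists and tests were chosen with earlier results of these data known. Named genes were the 12 promoters of each mark only and the 6 held by all 4 with the highest fold percentile in their lowest holding library, the 6 bodies with the widest gap in each direction, and up to 4 members per gene list. Genes with only an Ensembl identifier were skipped. Sequences were taken at the strongest 2 regions of each kind outside input regions. One of those of H4K12ac only is not reported here. Alternatives were equal numbers, q under 0.05, regions outside input regions, other promoter windows and overlaps, each library left out and the replicate number as a block.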

Additional observations from a re-analysis of the deposited data

How the results depend on the processing

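The differences in gene body share (−20.6 to −15.6 points with 1 library left out), intergenic share (9.66 to 13.3), GC share (4.19 to 5.12) and the dip before the start (27.1 to 39.3) kept their direction in untreated cells with equal numbers of 76888 regions and with each library left out, as did the first 3 at q under 0.05 and outside input regions. With 11680 regions the intergenic difference of untreated cells turned to −2.28 points. The width difference was 31 bp with equal numbers and 4 to 228 bp with 1 library left out, and the promoter share difference 0.311 points with equal numbers and 2.38 to 10.9 with 1 left out, lowest in both without H3K18ac replicate 1. The H3K18ac share of regions of 1 mark only was 60.2% with equal numbers, 19.97% at q under 0.05, 15.5% outside input regions, 30.1% when a library had to cover at least 50% of a region, 19.98% for summit windows, and 6.85% to 71.2% with 1 library left out, the highest without H3K18ac replicate 1 and 42.9% without replicate 2. For promoters it was 93.7% with equal numbers, 29.2% outside input regions, 54.9% by summits, 75.3% and 59.2% with windows of 500 bp and 2 kb, and 57.7% to 79.0% with 1 library left out. For gene bodies, 23.2% with all regions, it was 47.8% with equal numbers, 24.4% at q under 0.05, 19.2% outside input regions and 24.6% to 35.9% with 1 library left out, the highest without H3K18ac replicate 1. The cause was not tested.

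Over the 3 conditions, with the untreated libraries included, 1 of 5 properties passed. With equal numbers of 11680 regions, the whole list of H4K12ac NaBu replicate 2, 5 passed, with the intergenic difference turned to −2.76 points. Leaving out 1 library gave 1 to 4, with 3 without H3K18ac NaPr replicate 1 and 4 without H4K12ac NaBu replicate 2. Leaving out libraries other than H3K18ac NaPr replicate 1, and the measure of the dip with its tests, were chosen after seeing the data. H3K18ac NaPr replicate 1 was itself set apart by its placement, so the count without it is no separate test of placement. The gap of the SECTM1 body turned to −9.47 outside input regions, where NKPD1 had none. The difference in recurrence in treated cells was 0.98 to 2.51 with 1 library left out (1.74 with all, lowest without H3K18ac NaPr replicate 2). It was 1.38 with equal numbers and 1.54 at q under 0.05. At q under 0.05 the marks overlapped in NaBu cells, and the exact permutation p was 0.111, above the smallest possible 0.0556. Outside input regions, promoters held by all 4 went from 77 to 56 for ribosomal proteins, 34 to 24 for the proteasome, 68 to 46 for oxidative phosphorylation, 11 to 6 for keratins, 14 to 9 for deacetylases and 2 to 1 for enterocyte and goblet genes, and 21 of the 24 named promoters of 1 mark only kept their call. At equal numbers endothelial genes went from 1 to 0.

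Replicates of the marks share only a number. Between marks, the difference of replicates 1 and 2 over 384960 joined regions had r = 0.025. With the replicate number as a block 0 of 5 properties passed over the 3 conditions, where 64 arrangements give an adjusted p of 0.0781 at best (GC share), and recurrence had an exact p of 0.125, the smallest of 16 arrangements. Depth, which is only estimated here, limits what absence means: a region missing from H3K18ac replicate 1, lowest in estimated depth, was only not called there.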
